A study of Mus musculus with 12 samples.

Results

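The genes described here encode the machinery that brings secretory and membrane proteins into the endoplasmic reticulum (ER), folds them there and ships them on, together with the regulators of the unfolded protein response (UPR). The set held 53 genes, chosen by name for these known functions among the 54100 gene rows of the count table. The choice was made with earlier results of these data known, so counts of members that rose are a description and not a test of the set. They filled 54 rows, because Ddit3 is listed under a pair of identifiers, and 52 of the 53 had enough counts to be tested. They were ordered by role as 11 chaperones and their co-factors, 7 disulfide and prolyl isomerases with an oxidase, 9 translocon genes, 5 signal peptidase genes, 4 oligosaccharyltransferase genes, 5 UPR sensors and transcription factors, 3 genes of ER-associated degradation (ERAD) and 9 genes of the COPII coat, cargo receptors and retrieval.

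A secreted protein such as collagen enters the ER through the Sec61 channel, loses its signal peptide, receives sugars, folds with chaperones and isomerases, and leaves in vesicles coated with COPII. When unfolded proteins accumulate, the sensors IRE1 (gene Ern1), ATF6 and PERK start the UPR, in which XBP1 and ATF6 drive chaperone and transport genes and ATF4 drives amino acid and stress genes. Fibroblast-like cells that lay down matrix carry a heavy load of such cargo.

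RNA was measured in mesenchymal or fibro-adipogenic progenitors, the Pdgfra-expressing stromal cells of muscle, sorted from mouse plantaris, a small calf muscle, as 1000 cells per tube. There were 4 groups of 3 libraries, set by genotype and by load. Control mice carried Pdgfra-CreERT2 alone, and cdKO mice carried the same driver with flox/flox alleles of both Yap1 and Taz (gene Wwtr1), the transcriptional co-activators of the Hippo pathway. Within each genotype, cells came from sham plantaris or from overloaded plantaris, in which surgery makes the muscle bear more load. All 4 groups carry the Cre driver, so a genotype difference contrasts floxed with unfloxed cells. The driver acts in cells that express Pdgfra, which also marked the sorted cells. The sources used here give neither age nor sex, and they state neither how long after surgery cells were taken nor whether animals were pooled, so p-values measure the spread between these libraries.

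Library totals ran from 336437 to 1564581 counts, and 3 counts corresponded to between 1.95 and 9.72 CPM (counts scaled to the library total, with TMM factors throughout). Wwtr1 was lower in cdKO than in control by a log2 difference of -2.78 under overload (adjusted p = 1.83e-06, edgeR quasi-likelihood test) and -1.74 in sham (adjusted p = 0.00733), while Yap1 was not called (-0.85 and -0.61). Reads from 3′ tags need not come from the floxed exons, so these values do not check the deletion itself. The 10 listed progenitor markers were all tested, with summed levels of 51633 to 95207 CPM. The sum hides opposite changes, since 5 of the 10 were called lower and 2 higher under overload in each genotype. Over all tested genes 11% were lower and 10.6% higher in control, and 6.68% and 6.37% in cdKO. In control cells Dcn went from 22070, 31330 and 25350 CPM in sham to 6875, 4821 and 4026 CPM in overload. Col3a1 went from 14270, 11960 and 12190 CPM to 34230, 46390 and 30570 CPM. Markers of B, plasma and T cells, which include professional secretory cells, were near 0 (0 of 9 tested, summed 0.649 to 48.6 CPM, Igkc at 0). Members took 3070 to 34521 counts per library, or 0.913% to 2.21% of the total.

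The sequences below are shown because the reference chaperone of the UPR and 6 other members, all of which rose under overload in control cells, hold an ER stress response element (ERSE) in front of their start. The ERSE was searched as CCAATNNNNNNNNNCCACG, on both strands, in RefSeq promoter windows of 300 bases (250 before to 50 after the start, build GRCm38.p6). Windows were found for 43 of the 53 members, and 7 of these 43 held a match, against 37 of 27025 genes with a window (0.137%). All 7 were among the 24 members with a window that rose under overload in control cells, and 0 of the 18 members with a window that were tested and not called there held one. In cdKO cells, however, Hspa5, Hsp90b1 and Dnajc3 were not called under overload. Members were chosen by name for functions in which the ERSE was first described, and with earlier results of these data known. The shares are therefore a description. All 7 genes but Pdia6 are chaperones or their co-factors, a role in which 10 of 11 members rose in control cells. The split by call thus also follows role, and most of the 24 members with a window that rose held no match. The 8 matches are written in the orientation of the element, with its fixed bases in capitals.
Hspa5: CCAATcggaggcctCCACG
Hsp90b1, farther from the start: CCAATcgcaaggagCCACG
Hsp90b1, nearer the start: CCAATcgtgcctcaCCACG
Calr: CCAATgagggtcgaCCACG
Canx: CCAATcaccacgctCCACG
Dnajc3: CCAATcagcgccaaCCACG
Creld2: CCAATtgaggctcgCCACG
Pdia6: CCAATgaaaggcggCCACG

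The first base of the Hspa5 element lay 65 bases before the start, that of Pdia6 98 bases and that of Dnajc3 105 bases. In Hsp90b1 the elements began 212 and 107 bases before the start (counted from the end farther from the start), the first on the gene's strand and the second on the other. Calr (162 bases) and Creld2 (126 bases) also held the element on the opposite strand, and Canx held it on its own strand at 145 bases. Only the fixed bases are shared, while the 9 bases between them differ from gene to gene. The 250 bases before the start are given for the chaperones Hspa5 (chr2:34771840-34772089, plus strand) and Hsp90b1 (chr10:86705445-86705694, minus strand) and for the isomerase Pdia6 (chr12:17266339-17266588, plus strand), each 5′ to 3′ along the gene with the fixed bases of the element in capitals on whichever strand it lies.
Hspa5 upstream: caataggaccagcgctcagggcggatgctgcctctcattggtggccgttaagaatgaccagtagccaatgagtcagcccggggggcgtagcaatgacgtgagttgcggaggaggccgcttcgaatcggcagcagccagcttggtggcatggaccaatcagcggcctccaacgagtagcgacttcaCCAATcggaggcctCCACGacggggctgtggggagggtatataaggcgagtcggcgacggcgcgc
Hsp90b1 upstream: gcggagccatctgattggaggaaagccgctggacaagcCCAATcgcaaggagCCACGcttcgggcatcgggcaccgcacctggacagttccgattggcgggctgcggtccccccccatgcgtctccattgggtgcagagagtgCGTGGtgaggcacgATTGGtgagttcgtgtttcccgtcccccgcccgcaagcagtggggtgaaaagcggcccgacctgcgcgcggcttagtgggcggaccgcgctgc
Pdia6 upstream: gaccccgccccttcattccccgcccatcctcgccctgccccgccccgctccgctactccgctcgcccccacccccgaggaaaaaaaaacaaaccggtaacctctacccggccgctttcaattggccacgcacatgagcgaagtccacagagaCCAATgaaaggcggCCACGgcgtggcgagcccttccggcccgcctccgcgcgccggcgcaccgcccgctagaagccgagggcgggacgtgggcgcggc

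Other UPR elements were rarer among the members. ERSE-II (ATTGG, 1 base of any kind, then CCACG) was in the windows of Dnajb11 and Herpud1, against 0.0444% of all genes. The UPR element TGACGTGG was in those of Sec23a, Sec24d and Kdelr3 (0.714% of all genes), and the C/EBP-ATF response element TGATGNAA was in that of Herpud1 (4.51%). Of the genes with these other elements, Dnajb11, Sec24d and Kdelr3 rose under overload in control cells, while Herpud1 and Sec23a were not called. No element overlapped another. A window without a match says only that these letters are not in it.

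Overload against sham in control cells asks how the secretory machinery of progenitors with unfloxed Yap1 and Taz differed when the muscle was overloaded. Of the 52 tested members, 32 rose and 0 fell, against 10.6% of the 8161 tested genes that rose and 11% that fell (21.7% in all). The median log2 fold change was 0.97 over the members and -0.05 over all genes. Chaperones, isomerases, translocon, signal peptidase, glycosylation and COPII genes supplied 31 of the 32, and ERAD supplied Edem1. None of the 4 tested UPR sensors and transcription factors was called. The gene of the sensor PERK, Eif2ak3, is not a member and is given with the other pathway genes. The 20 members not called held a median of 824.5 counts over the 12 libraries (123 to 11475), against 2203.5 for those called. The summed level of all members was 10584 ± 969 CPM in control sham and 19602 ± 3399 CPM in control overload (SD, n = 3), a fold of 1.85, with no overlap between the libraries. In such sorted bulk samples, more cells with a high level and more RNA per cell cannot be told apart.

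**Figure D1:**
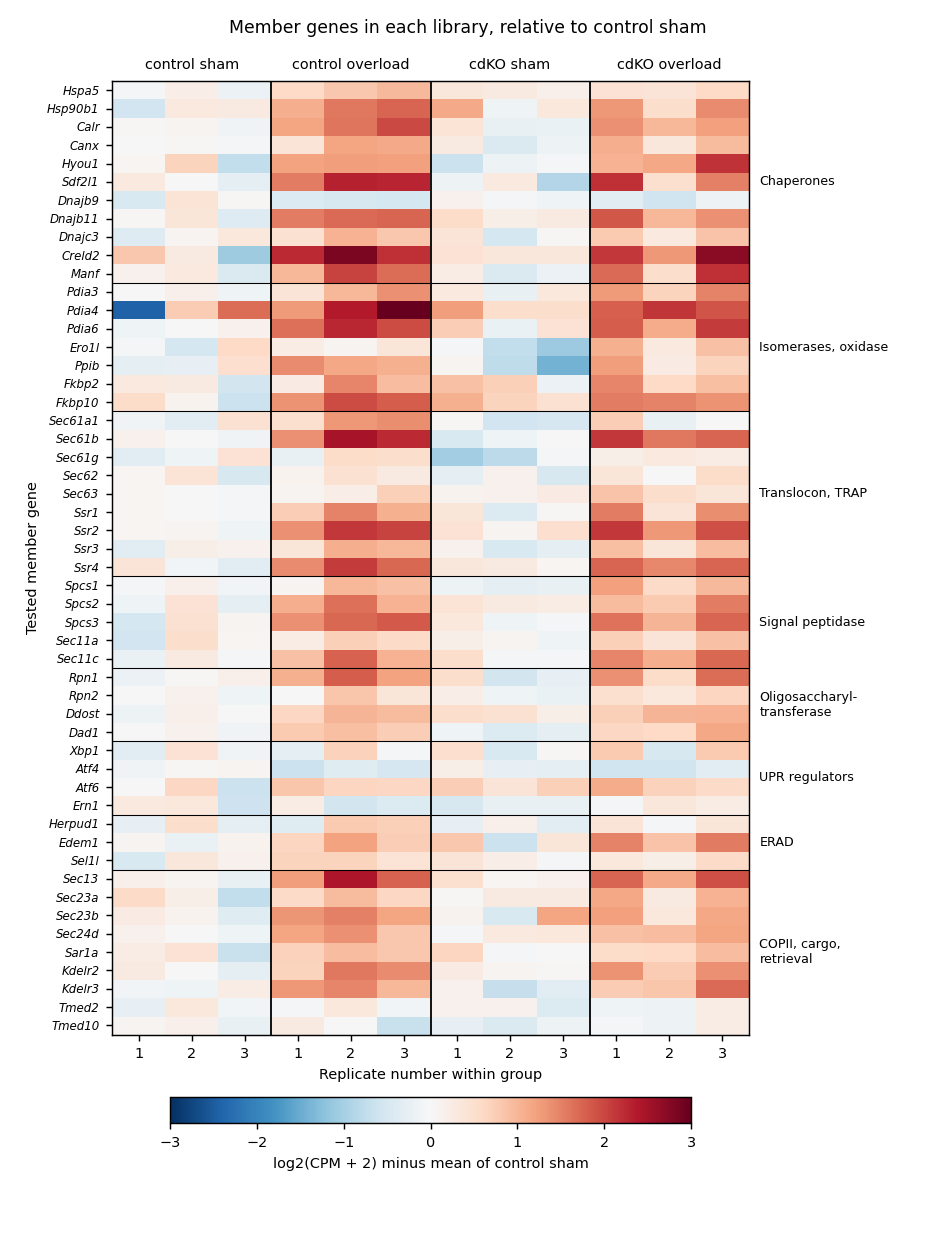
Level of each of the 52 tested members (rows, by role) in each of the 12 libraries (columns, by group and replicate number), as log2(CPM + 2) minus the mean of the control sham libraries. Red cells prevail in the control overload and cdKO overload columns, where 32 and 26 members rose, while the UPR regulators stay pale.

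Chaperones bind folding proteins in the ER lumen, and 10 of 11 tested rose in control overload. Calr encodes calreticulin, a lectin chaperone that holds glycoproteins (chr8:84841850-84846934, minus strand, GRCm38). It stood at 356, 366 and 324 CPM in control sham and at 791, 1059 and 1369 CPM in control overload, a log2 fold change of 1.62 ± 0.26 (SE, adjusted p = 9.33e-05). Every overloaded library lay above every sham library. Creld2, a stress-induced ER factor (chr15:88819646-88826683, plus strand), went from 40.5, 27.3 and 9.72 CPM to 114, 171 and 110 CPM (2.29 ± 0.38, adjusted p = 1.51e-04). This was the highest fold among the members, from a low level in sham, where 9.72 CPM is 3 counts.

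Hspa5 encodes BiP, the main chaperone of the lumen and the classical reporter of the UPR (chr2:34771970-34777547, plus strand). Its level was 2119, 2490 and 1931 CPM in control sham and 3287, 3828 and 4270 CPM in control overload, a log2 fold change of 0.80 ± 0.24 (adjusted p = 0.0194). The libraries did not overlap, yet the change was below the median of the members. Hsp90b1 (GRP94), the ER member of the HSP90 family, rose by 1.45 ± 0.33, from 158, 288 and 282 CPM to 501, 700 and 786 CPM. Sdf2l1, a BiP partner, rose by 2.21 ± 0.44 from between 9.72 and 15.8 CPM to between 39.6 and 68.8 CPM. The co-chaperone Dnajb11 (1.64), the secreted ER factor Manf (1.59), the chaperone Hyou1 (1.06), the lectin chaperone Canx (0.95) and the co-chaperone Dnajc3 (0.78) completed the group. Dnajb9, a co-chaperone known as a target of XBP1, was the exception, with -0.53 ± 0.24 (adjusted p = 0.12) and 182, 336 and 259 CPM in sham against 190, 178 and 175 CPM in overload.

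The isomerases and their partners, which form disulfide bonds and turn prolines, had 4 of 7 tested members called. Pdia6, a disulfide isomerase (chr12:17266545-17284770, plus strand), stood at 408, 444 and 486 CPM in control sham and at 1397, 2141 and 1722 CPM in overload, a log2 fold change of 1.98 ± 0.30 (adjusted p = 3.43e-05). Its lowest overloaded library was well above its highest sham library. Fkbp10 encodes FKBP65, a prolyl isomerase that acts on collagen (chr11:100415697-100424824, plus strand). It rose by 1.72 ± 0.34 (adjusted p = 8.04e-04), from 24.8, 17.8 and 9.72 CPM to 44.8, 68.8 and 63 CPM. Pdia3 (0.97) and Pdia4 (1.92) also rose. Pdia4, however, was at 0 in 1 control sham library, and its libraries overlapped. Ppib, the collagen-folding cyclophilin B, had 1.40 ± 0.55 (adjusted p = 0.0689), and Fkbp2 had 0.97 ± 0.40 (adjusted p = 0.0814). Ppib held only 123 counts over the 12 libraries and shares 825 exonic bases with Snx22 on the opposite strand. Ero1l, the oxidase that recharges the isomerases, had 0.27 ± 0.42 (adjusted p = 0.689).

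The translocon genes gave the smallest adjusted p of the set. Sec61b encodes the beta subunit of the channel (chr4:47474658-47483242, plus strand). Its level went from 42.8, 38.3 and 35.6 CPM to 103, 223 and 189 CPM (2.15 ± 0.30, adjusted p = 1.68e-05). Of the channel's 3 subunits, the pore subunit Sec61a1 also rose, by 1.16 ± 0.31, and the gamma subunit Sec61g had 0.39 ± 0.35 (adjusted p = 0.455). In cdKO cells the order was reversed, with 0.58 ± 0.32 for Sec61a1 and 0.89 ± 0.37 for Sec61g, neither of them called. The subunits were not tested against each other. All 4 genes of the translocon-associated protein (TRAP) complex rose. Ssr4 (chrX:73787028-73790830, plus strand) did so by 1.77 ± 0.26 (adjusted p = 3.01e-05), from 85.6, 61.5 and 51.8 CPM to 176, 284 and 218 CPM, and Ssr2, Ssr1 and Ssr3 rose by 1.94, 1.14 and 0.84. The accessory factors of post-translational import, Sec62 and Sec63, had 0.23 and 0.36 and were not called. Within this role the channel and TRAP genes thus made up every call.

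Signal peptidase, which cuts off the signal peptide, had 3 of 5 genes called. Spcs3 (chr8:54520433-54529998, minus strand) went from 24.8, 50.6 and 38.9 CPM to 98.2, 125 and 135 CPM (1.61 ± 0.30, adjusted p = 3.82e-04), and Spcs2 (chr7:99837569-99863462, minus strand) from 137, 204 and 123 CPM to 322, 483 and 315 CPM (1.25 ± 0.27, adjusted p = 0.00152). Both accessory subunits were separate from sham in every library. Of the catalytic subunits, Sec11c rose by 1.32 ± 0.32, whereas its paralog Sec11a had 0.44 ± 0.26 (adjusted p = 0.235). Spcs1 had 0.72 ± 0.27 (adjusted p = 0.0588).

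Oligosaccharyltransferase attaches sugars to the entering chain, and 3 of its 4 listed subunits rose. Rpn1 (ribophorin I, chr6:88084482-88105304, plus strand) stood at 187, 216 and 237 CPM in sham and at 445, 756 and 496 CPM in overload (1.42 ± 0.31, adjusted p = 0.00196). Ddost (chr4:138304730-138312628, plus strand) went from 63.1, 77.9 and 71.3 CPM to 110, 144 and 139 CPM (0.89 ± 0.24, adjusted p = 0.00991). Libraries of sham and overload did not overlap for either subunit. Dad1 rose by 0.80 ± 0.23, and Rpn2, ribophorin II, had 0.44 ± 0.24 (adjusted p = 0.201).

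COPII and retrieval genes carry cargo out of the ER and bring escaped ER proteins back, and 5 of 9 rose. Sec13 encodes a subunit of the outer coat (chr6:113728062-113740743, minus strand). It went from 135, 130 and 104 CPM to 295, 663 and 419 CPM (1.90 ± 0.29, adjusted p = 5.41e-05). Sec24d, an inner-coat subunit that picks cargo (chr3:123267455-123365641, plus strand), went from 241, 217 and 201 CPM to 503, 572 and 388 CPM (1.15 ± 0.24, adjusted p = 0.00114). Its libraries also stood apart by load. Sec23b, another inner-coat gene, rose by 1.34 ± 0.36, and its paralog Sec23a had 0.61 ± 0.31 (adjusted p = 0.16). In cdKO cells Sec23b had 0.60 ± 0.35 and Sec23a 0.69 ± 0.30, and neither was called. The paralogs were not tested against each other. The receptors that return KDEL-tagged chaperones, Kdelr2 and Kdelr3, rose as well, Kdelr2 from 410, 339 and 275 CPM to 536, 1005 and 911 CPM, and Kdelr3 by 1.28 on the log2 scale. Sar1a, the GTPase that starts the coat, had 0.72 ± 0.27 (adjusted p = 0.0526). The p24 cargo receptors Tmed2 (0.04) and Tmed10 (-0.11) had values near 0.

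**Figure D2:**
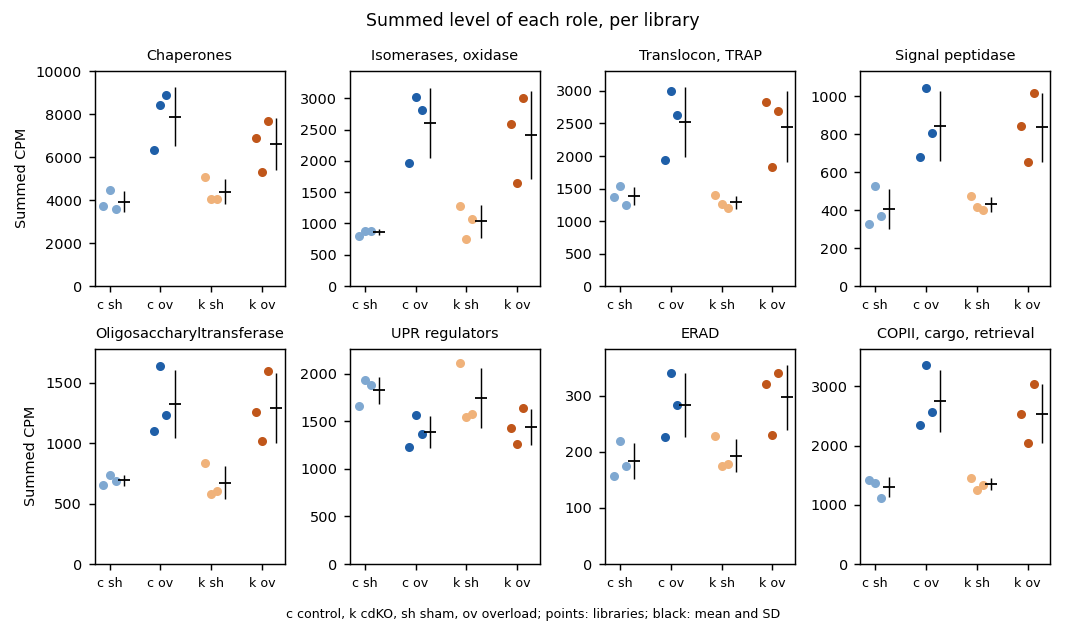
Summed CPM of the members of each role (vertical axes, each from 0) in every library, by group (c control, k cdKO, sh sham, ov overload), with the mean and SD of 3 libraries beside the points. In 7 of the 8 roles the overload libraries of both genotypes lie above their sham libraries. The UPR regulators, whose sum is mostly Atf4, lie lower, with a fold of 0.760 in control and, with overlapping libraries, 0.827 in cdKO.

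The tested UPR regulators were called in neither genotype under overload. Their lower summed level rested on Atf4 (a mean of 1602 of 1825 CPM in control sham), while Xbp1 and Atf6 had positive values in both genotypes. Atf4, the effector of the PERK branch (chr15:80255184-80257541, plus strand), stood at 1480, 1636 and 1691 CPM in control sham and at 1022, 1242 and 1132 CPM in control overload. Its log2 fold change was -0.50 ± 0.24 (adjusted p = 0.136). Although it was not called, it was the only member with every overloaded library below every sham library, which 18.9% of tested genes showed in that direction. Members with every overloaded library above numbered 35, against 18% of tested genes.

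Xbp1 (chr11:5520659-5525893, plus strand), the IRE1-activated transcription factor, stood at 126, 217 and 149 CPM in sham and at 131, 258 and 155 CPM in overload (0.14 ± 0.35, adjusted p = 0.807). These ranges overlap almost wholly, and gene counts do not separate spliced from unspliced Xbp1. Atf6 (chr1:170704674-170867771, minus strand) had 31.5, 49.2 and 19.4 CPM against 56.9, 50 and 49 CPM (0.53 ± 0.31, adjusted p = 0.233). Its 95% interval of -0.11 to 1.18 holds the members' median of 0.97, unlike the intervals of Atf4, Xbp1 and Ern1. Ern1, which encodes the sensor IRE1 (chr11:106394650-106487852, minus strand), had 20.3, 20.5 and 9.72 CPM against 19, 10.4 and 11.7 CPM (-0.42 ± 0.45, adjusted p = 0.532). Its 95% interval of -1.35 to 0.50 leaves changes in either direction undetermined. Ddit3 encodes CHOP, a pro-apoptotic factor of the UPR, and was too low to test. One of its rows was 0 in every library, and the other held 89 counts in all, or 4.5, 9.57 and 9.72 CPM in control sham and 5.17, 7.14 and 12.8 CPM in control overload. These values lie close to the level of 3 counts.

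The ERAD genes, which send misfolded proteins back to the cytosol, lay between these patterns, with 1 of 3 called. Edem1, a lectin that extracts glycoproteins (chr6:108828641-108859356, plus strand), went from 60.8, 49.2 and 61.6 CPM to 89.6, 133 and 95.7 CPM (0.93 ± 0.32, adjusted p = 0.04). Sel1l, a subunit of the ligase complex (chr12:91806043-91849157, minus strand), had 36, 64.3 and 55.1 CPM against 81, 81.8 and 67.7 CPM (0.55 ± 0.28, adjusted p = 0.159). For both genes the overloaded libraries were the higher ones throughout. Herpud1 had 0.40 ± 0.30 (adjusted p = 0.366), with 1 overloaded library below every sham library.

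**Figure D3:**
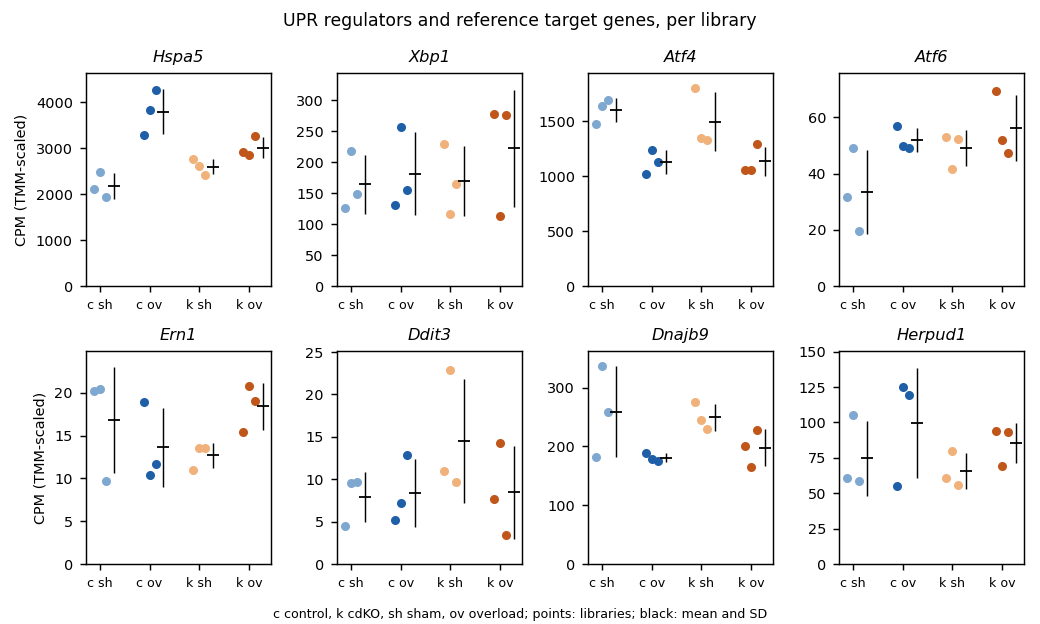
CPM of the UPR regulators, of Hspa5 and of the response genes Dnajb9 and Herpud1 in every library (vertical axes from 0), by group (c control, k cdKO, sh sham, ov overload), with the mean and SD of 3 libraries in black. Hspa5 separates by load in both genotypes and was called in control cells alone. Atf4 is lower in overload in both genotypes without being called, and Xbp1, Ern1 and Ddit3 overlap between sham and overload in control cells.

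The count in control cells was lower in all 3 alternatives chosen after seeing the data. It was 26 with counts thinned to the smallest library, 16 without replicate 2 of control overload and replicate 3 of control sham together, and 16 with Y-linked counts as a covariate. Summed Y-linked levels were 72.7 and 88.7 CPM in control overload replicates 2 and 3, against 131 to 337 CPM in the other 10 libraries. Leaving out 1 library at a time gave 24 to 35. Hspa5 missed the threshold without any 1 of control sham replicates 1 and 3 and control overload replicates 2 and 3 (adjusted p = 0.0588 to 0.0871), with values of 0.74 to 0.83 on the log2 scale. Ddost missed it without control sham replicate 1 (adjusted p = 0.0539), and Edem1 without any 1 library of either group except control overload replicate 1 (adjusted p = 0.0558 to 0.173). With both libraries set aside, calls also ended for Hspa5 (adjusted p = 0.19), Ddost (0.102), Edem1 (0.24), Spcs2 (0.0818) and Sec24d (0.0501), and with Y-linked counts for Hspa5 (0.195), Ddost (0.222), Edem1 (0.0915) and Fkbp10 (0.0504).

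Libraries of a group differed in the same direction for many members. Control overload replicate 1 was the lowest of its group for 38 of 52 members, and replicate 2 was the highest for 37. In cdKO overload, replicate 2 was the lowest for 41 of 52. On the first principal component of all tested genes these 2 low libraries also stood nearest to sham, at 15.7 and 7.48 against 33.2 to 64.4 for the other overloaded libraries. Some markers of other cells moved with load, as progenitor markers did, while no tested myofibre or macrophage marker was called in either genotype. Summed pericyte and smooth muscle markers were 453 to 586 CPM in control sham and 198 to 302 CPM in control overload. Of them 3 of 7 tested were called lower, against 11% of all tested genes. Erythroid markers were 0 to 4.50 CPM and 12.3 to 281 CPM. The highest value was that of replicate 1 alone, and 0 of 3 tested were called in control cells. In cdKO cells the erythroid markers went the other way, with 5.50 to 130 CPM in sham and 0 to 1.12 CPM in overload. Endothelial markers there were 114 to 325 CPM in sham and 55.6 to 81.9 CPM in overload. The mitochondrial share of counts was 12.5% ± 1.32 in cdKO sham and 9.42% ± 0.776 in cdKO overload (SD, n = 3), without overlap. In control cells it was 8.65% ± 1.42 in sham and 10.3% ± 1.64 in overload, with overlap. The share of every cdKO sham library lay above that of every control sham library. The part of these markers and of the mitochondrial share in the member values was tested neither for load nor for genotype.

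Overload against sham in cdKO cells asks whether the same genes differed by load when Yap1 and Taz were targeted. Of 52 tested members 26 rose and 0 fell, against 6.37% of tested genes that rose and 6.68% that fell (13% in all). The median log2 fold change was 0.90, with -0.02 over all genes. Summed member levels were 11099 ± 1511 CPM in cdKO sham and 17878 ± 3570 CPM in cdKO overload (SD, n = 3), a fold of 1.61 without overlap. Every overloaded library lay above every sham library for 37 members, against 15.4% of tested genes, and below for Dnajb9 and Atf4 (14.7%). These libraries are separate from those of the control comparison.

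Calls by role were 7 of 11 chaperones, 3 of 7 isomerases and partners, 5 of 9 translocon genes, 4 of 5 signal peptidase genes, 2 of 4 oligosaccharyltransferase genes, 0 of 4 UPR regulators, 1 of 3 ERAD genes and 4 of 9 coat and retrieval genes. Sec61b again had the smallest adjusted p, with 27.5, 35.4 and 38.7 CPM in cdKO sham and 176, 120 and 135 CPM in cdKO overload (2.07 ± 0.30, adjusted p = 6.52e-05). Its libraries were as clearly apart as in control cells. Ssr4 went from 82.5, 78.1 and 67.7 CPM to 224, 181 and 222 CPM (1.45 ± 0.25, adjusted p = 4.66e-04). Spcs3 went from 45.8, 33.3 and 34.8 CPM to 117, 76.7 and 128 CPM (1.51 ± 0.29, adjusted p = 0.00119). For each of these 3 genes the overloaded libraries lay above all sham libraries.

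Among the folding genes, Pdia6 stood at 746, 385 and 597 CPM in cdKO sham and at 1582, 961 and 1915 CPM in overload (1.37 ± 0.29, adjusted p = 0.00257). Calr went from 464, 298 and 305 CPM to 902, 696 and 814 CPM (1.18 ± 0.26, adjusted p = 0.0038), and Creld2 from 31.2, 29.2 and 29 CPM to 105, 58.5 and 158 CPM (1.85 ± 0.36, adjusted p = 0.00155). Replicate 2 of overload was the lowest of its group for all 3 of these folding genes. Hyou1, the large chaperone that resets BiP, rose by 1.86 ± 0.33 (adjusted p = 6.21e-04), with 31.2, 44.8 and 48.3 CPM against 105, 113 and 232 CPM. Hspa5 stood at 2753, 2608 and 2420 CPM in cdKO sham and at 2920, 2845 and 3274 CPM in overload. That step of 0.22 ± 0.24 was not called (adjusted p = 0.619), although the overloaded libraries were all above sham.

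In the later steps, Rpn1 went from 304, 145 and 178 CPM to 548, 309 and 683 CPM (1.31 ± 0.31, adjusted p = 0.0064). Sec13 went from 172, 128 and 133 CPM to 417, 270 and 469 CPM (1.42 ± 0.29, adjusted p = 0.00172). Sec24d went from 213, 268 and 273 CPM to 408, 419 and 502 CPM (0.82 ± 0.23, adjusted p = 0.0219). In each of these genes sham and overload were separate. Kdelr3 and Kdelr2 rose by 1.46 and 1.07, Edem1 by 1.10 ± 0.31, and Spcs2 by 0.83 ± 0.26.

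The regulators were again not called. Atf4 had 1806, 1353 and 1332 CPM in cdKO sham against 1061, 1057 and 1290 CPM in overload (-0.40 ± 0.24, adjusted p = 0.296). Xbp1 had 229, 117 and 164 CPM against 278, 113 and 276 CPM (0.40 ± 0.34, adjusted p = 0.497). Atf6 (0.20 ± 0.29) and Ern1 (0.53 ± 0.44) were not called either, and Ern1 had 11, 13.5 and 13.5 CPM in sham against 15.4, 20.8 and 19.1 CPM in overload. The 95% intervals of Xbp1 (-0.32 to 1.12) and Ern1 (-0.37 to 1.44) hold the members' median of 0.90. Those of Atf4 (-0.89 to 0.09) and Atf6 (-0.40 to 0.81) do not. Dnajb9 had -0.33 ± 0.24 (adjusted p = 0.395). Atf4 and Dnajb9 thus had negative values in both genotypes without passing the test, whereas the value of Ern1 was negative in control and positive in cdKO. Ddit3 held 11, 22.9 and 9.66 CPM in sham and 7.72, 14.3 and 3.37 CPM in overload and was not tested.

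This count rested more on single libraries. It was 15 without cdKO overload replicate 1, 16 without cdKO sham replicate 2 and 17 without cdKO overload replicate 3, and 29 without cdKO overload replicate 2. Without 1 cdKO library at a time, Spcs2 missed the threshold in 5 of 6 cases (adjusted p = 0.0766 to 0.262), Sec24d in 5 (0.0521 to 0.117), Edem1 in 3 (0.0889 to 0.154) and Rpn1 in 2 (0.0543 and 0.0581). The counts over all genes without the first 3 of these fell alongside, to 473, 551 and 423 from 1065.

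In the 2 overload comparisons together, 24 members rose in both, which is 75% of the control list and 92.3% of the cdKO list. Over all tested genes 380 rose in both, which is 43.8% of the 867 that rose in control and 73.1% of the 520 that rose in cdKO. The 24 members were 7 chaperones and co-factors (Calr, Canx, Hyou1, Sdf2l1, Dnajb11, Creld2 and Manf), Pdia3 and Pdia6, Sec61b with the 4 TRAP genes, Spcs2, Spcs3 and Sec11c, Rpn1 and Dad1, Edem1, and Sec13, Sec24d, Kdelr2 and Kdelr3. Called in control alone were 8 genes (Hspa5, Hsp90b1, Dnajc3, Pdia4, Fkbp10, Sec61a1, Ddost and Sec23b), and in cdKO alone Ero1l and Spcs1. A call in a single genotype does not show a difference between genotypes, and the interaction was called for none of the 10. Neither comparison called 18 members.

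**Figure D4:**
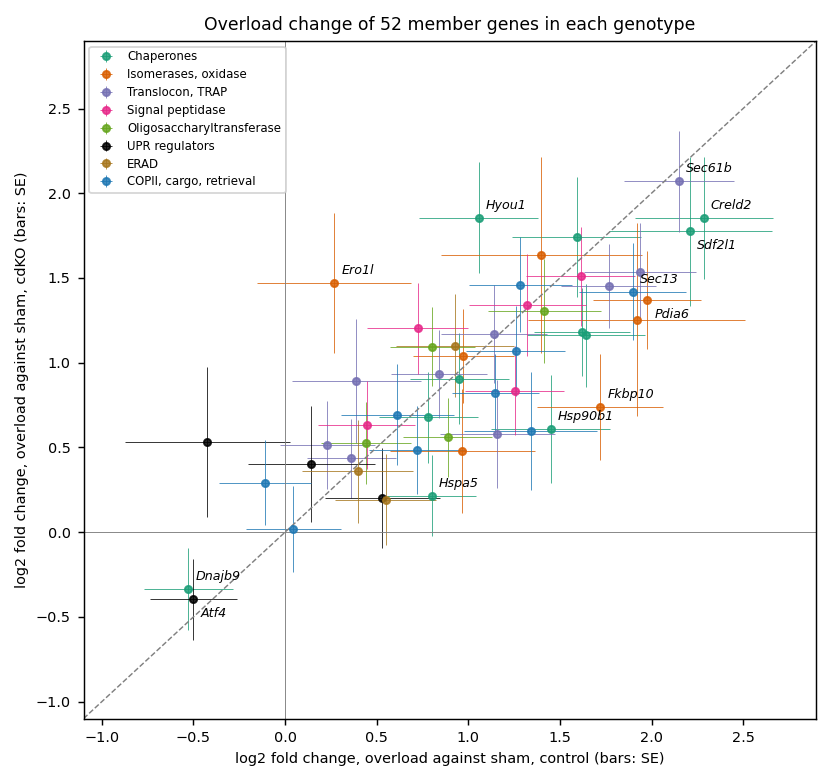
Log2 fold change of overload against sham for the 52 tested members in control (horizontal axis) and cdKO (vertical axis), coloured by role, with standard errors as bars and the line of equal change dashed. Most points lie in the upper right near the line, Dnajb9 and Atf4 lie in the lower left, and Ero1l and Fkbp10 are among those farthest from the line.

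The interaction tests whether the overload step differed by genotype. None of the 52 members was called, as was 0% of the 8161 genes tested (edgeR quasi-likelihood test), and 1 member (1.92%) had an unadjusted p under 0.05, against 5.23% of tested genes. DESeq2 and limma voom also called 0 members. The smallest p was that of Fkbp10, whose overload step was smaller in cdKO by -0.98 ± 0.47 on the log2 scale (adjusted p = 0.931). In cdKO it had 36.7, 27.1 and 23.2 CPM in sham and 51, 49.4 and 44.9 CPM in overload, so 2 of the 3 cdKO sham libraries lay above all control sham libraries, while the cdKO overload libraries lay within the control range. Ero1l differed in the other direction (1.20 ± 0.60, adjusted p = 0.931), with 18, 12.3 and 29.2 CPM in control sham, 22.4, 20.1 and 24.5 CPM in control overload, 18.3, 10.4 and 7.73 CPM in cdKO sham and 41.7, 23.4 and 35.9 CPM in cdKO overload. Hsp90b1 had -0.84 ± 0.45 (adjusted p = 0.94), with 519, 212 and 290 CPM in cdKO sham and 579, 341 and 629 CPM in cdKO overload. Only 20 of 52 members had a 95% interval within 1 log2 unit of 0, so for the others the intervals leave a 2-fold difference possible. The median of -0.06 became -0.30 without control overload replicate 1.

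The genotypes were next compared under each load. In overloaded muscle, 0 of 52 members were called, against 0.0368% of tested genes (3 genes, 0.0245% being lower in cdKO), and DESeq2 and limma voom also called 0 members. At an unadjusted p under 0.05 there was 1 of 52 members (1.92%), against 6.97% of tested genes. It was Sec61a1, the pore of the translocon (chr6:88503579-88518905, minus strand). Its levels were 86.1, 153 and 163 CPM in control overload and 104, 52 and 61.7 CPM in cdKO overload (-0.92 ± 0.29, adjusted p = 0.452), with 1 cdKO library inside the control range. In sham it had 56.3, 47.8 and 84.2 CPM in control and 62.3, 40.6 and 42.5 CPM in cdKO.

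Next came Sdf2l1, with 39.6, 68.8 and 67.7 CPM in control overload and 63.3, 18.2 and 39.3 CPM in cdKO overload (-0.59 ± 0.35, adjusted p = 0.804). Calr followed with -0.42 ± 0.25 (adjusted p = 0.805). Hspa5 was the only member whose cdKO libraries all lay below the control libraries under overload (5.31% of tested genes did), and none had all of them above (5.38%). The difference of Hspa5 was -0.33 ± 0.24 (95% interval -0.83 to 0.16, adjusted p = 0.854). For 43 of 52 members the 95% interval lay within 1 log2 unit of 0, which leaves 2-fold differences possible for the other 9. The median difference was -0.10, with 0.03 over all genes.

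In sham muscle 0 of 52 members were called, against 0.0123% of tested genes (1 gene, Wwtr1), and DESeq2 and limma voom called 0 members. At an unadjusted p under 0.05 there were 0 members, against 4.09% of tested genes. The smallest p values belonged to Fkbp10 (0.67 ± 0.38), Sec61g (-0.64 ± 0.40) and Ddost (0.39 ± 0.25), each with an adjusted p of 0.999. Sec61g had 22.5, 26 and 38.9 CPM in control and 12.8, 15.6 and 27.1 CPM in cdKO, with overlap. Ddost had 103, 96.8 and 79.2 CPM in cdKO, all just above the control values of 63.1 to 77.9 CPM. Members whose cdKO libraries were all above numbered 3 (Sec63, Ssr2 and Ddost; 5.44% of tested genes), and all below 2 (Spcs1 and Dad1; 4.45%). The intervals of 37 of 52 members lay within 1 log2 unit of 0.

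**Figure D5:**
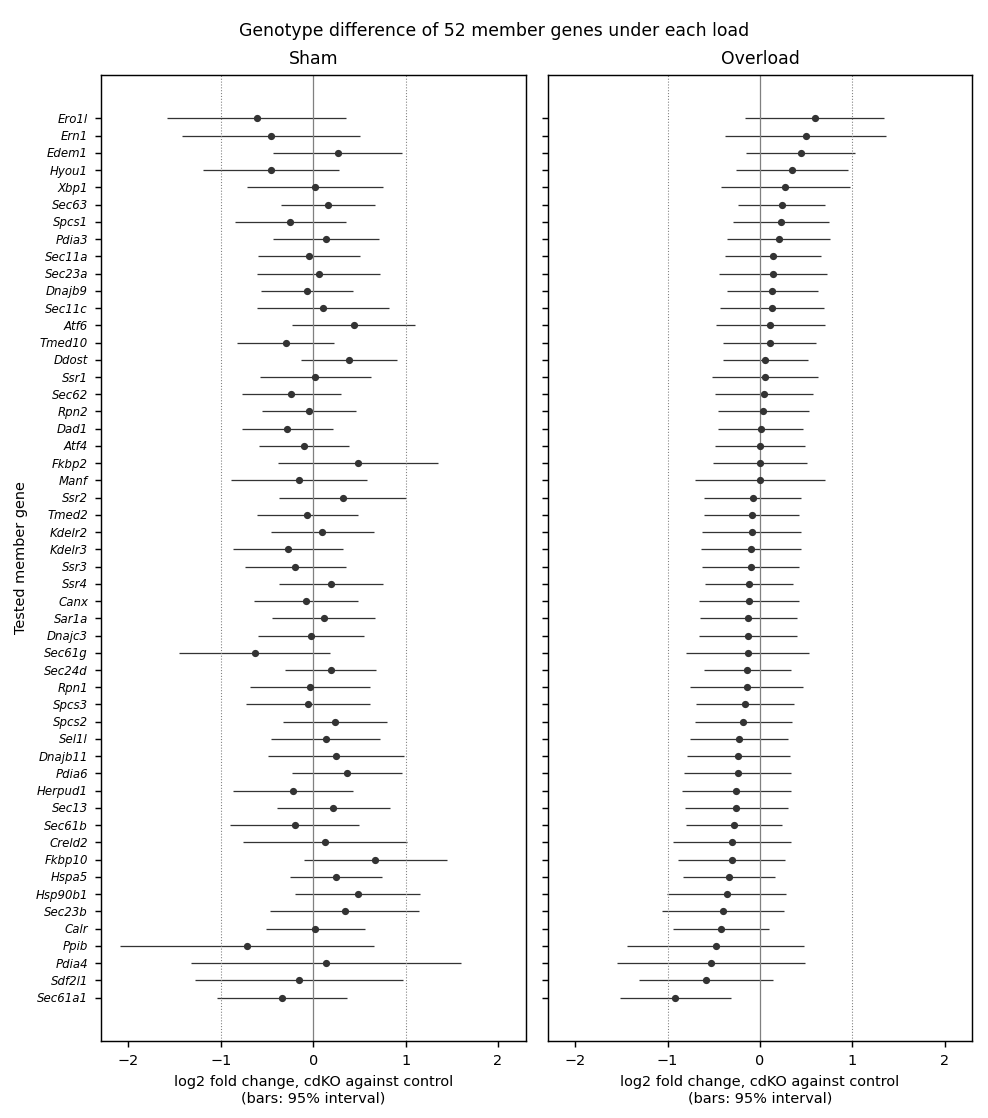
Log2 difference of cdKO against control with its 95% interval for the 52 tested members in sham (left) and overloaded muscle (right), ordered by the value under overload, with dotted lines at 1 log2 unit. All sham intervals cross 0, and under overload the interval of Sec61a1 alone does not, without passing the adjusted threshold.

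Other genes of these pathways, taken from a list of 110 names (109 genes in the table) that are not members, moved the same way in part. Of 97 tested, 34 rose and 2 fell in control overload, against 10.6% and 11% of all tested genes. In cdKO overload 30 rose and 2 fell, against 6.37% and 6.68%. Between genotypes and in the interaction 0 of 97 were called. Over all tested genes these shares were 0.0368% between genotypes under overload, 0.0123% in sham and 0% in the interaction. Among those that rose in control cells, the genes with the smallest p were Fkbp11, a secretory prolyl isomerase (4.56 ± 0.67, adjusted p = 1.32e-04), the cargo receptor Surf4 (1.77 ± 0.30, adjusted p = 1.71e-04) and the glycoprotein cargo receptor Lman1 (1.59 ± 0.28, adjusted p = 2.77e-04). Fkbp11 had 0, 6.84 and 3.24 CPM in control sham and 29.3, 134 and 120 CPM in overload, so its fold rests on few sham counts. Among those that rose in cdKO cells they were the disulfide isomerase Pdia5 (1.86 ± 0.36), Fkbp11 (3.18 ± 0.57) and Serp1, a translocon-associated protein (1.28 ± 0.26).

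The only genes of that list that fell, in either genotype, were UPR effectors. Atf3, a stress transcription factor downstream of ATF4, went from 606, 731 and 680 CPM to 286, 164 and 119 CPM in control cells (-1.84 ± 0.31, adjusted p = 1.28e-04) and changed by -1.31 ± 0.30 in cdKO cells. Ppp1r15a encodes GADD34, which ends the PERK branch's block of translation, and went from 655, 536 and 616 CPM to 236, 217 and 218 CPM (-1.43 ± 0.30, adjusted p = 0.00153), with -1.15 ± 0.30 in cdKO cells. Both genes were lower in every overloaded library than in every sham library of the same genotype. Other UPR genes, named after their values were seen, went the other way in control cells, namely Eif2ak3, which encodes the sensor PERK (1.41 ± 0.44), its substrate Eif2s1 (1.21 ± 0.30) and Chac1, a target of ATF4. Chac1 held 87 counts in control overload and 1 in control sham, a ratio of 43.4 (exact 95% counting interval 7.58 to 1732), and 45 against 2 counts in cdKO (19.7, interval 5.15 to 168). These intervals pool the libraries of a group and leave out the spread between them.

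Exons of 21 members overlap another gene, and without a stated strand setting the reads cannot be told apart. The partner held at least 10% of the member's counts for 5 of them, namely Kdelr3, Sec11a, Spcs1, Ddit3 and Fkbp10. Fkbp10 shares 193 exonic bases with Nt5c3b on the opposite strand (103 counts against 382). Pseudogenes of Calr, Spcs2 and Tmed10 took 8, 4 and 0 counts.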

How the data were processed

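The authors deposited raw counts per gene for 12 libraries, whole numbers with a different total in each. Per the labels' protocols, libraries followed a published low-input method for sorted cells, which tags 3′ ends. The submitters' processing notes name featureCounts 2.0.1, HISAT2 2.2.1, DESeq2 1.26.0, Trim Galore 0.6.6 and the build GRCm38. The sources used here do not give the annotation release, the strand setting or the use of molecular identifiers, so intervals made from counts cover the error of counting alone.

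Members were matched by symbol, and coordinates came from GENCODE M21 (GRCm38) by gene identifier. Groups and replicate numbers came from the sample titles. Counts were tested in R 4.3.3 with edgeR 4.0.16. After filterByExpr and TMM scaling, all 12 libraries entered a single robust quasi-likelihood fit with 1 mean for each group. All adjusted p-values are two-sided Benjamini-Hochberg values over 8161 genes, with 0.05 as threshold. The SE follows from the log2 fold change and the F statistic (its size over the root of F), and 95% intervals use the t distribution with the model's degrees of freedom. No library was a duplicate of another of its group (chi-square of their counts 3.22 to 19.2 per degree of freedom).

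Members and gene lists were chosen with earlier results of these data known. Members given for every library were the 2 of each role with the smallest p in control overload, Hspa5 and the UPR regulators, and the 3 with the smallest p in each genotype comparison and the interaction. Of other pathway genes up to 3 each way per overload comparison were named. Further members are named as exceptions within their role. Alternatives were DESeq2 1.42.0, voom in limma 3.58.1, other scaling factors, no filter, a replicate block, fits of the compared groups only and leaving out each library. A further 3, chosen after seeing the data, set aside 2 libraries, added Y-linked counts as a covariate, and thinned counts to the smallest library.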

Additional observations from a re-analysis of the deposited data

How the results depend on the processing

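Members called under overload numbered 31 to 34 in control and 23 to 27 in cdKO with DESeq2, voom, other scalings, no filter, the replicate block and fits of the compared groups only. Thinned counts gave 26 and 20. Setting aside control overload replicate 2 and control sham replicate 3, or adding Y-linked counts, gave 16 in control each and 26 in cdKO. Leaving out 1 library gave 24 to 35 in control and 15 to 29 in cdKO. No alternative called a member in a genotype comparison or the interaction. Median member changes ran, without 1 library, from 0.91 to 1.19 in control, 0.76 to 1.08 in cdKO, -0.29 to 0.072 between genotypes under overload, -0.14 to 0.15 in sham and -0.30 to 0.087 in the interaction. The largest shift that another scaling gave the median of all genes was -0.0421.

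Counts over all genes moved more. For overload in control (1768) they were 712 with both libraries set aside, 766 with Y-linked counts, 784 thinned and 1060 to 2508 without 1 library, the lowest without control overload replicate 2. For overload in cdKO (1065) they were 702 without a filter, 454 thinned and 423 to 1287 without 1 library. Between genotypes under overload (3) they were 1 with DESeq2, 17 without a filter, 1 with only the compared groups, 1 with Y-linked counts, 1 thinned and 1 to 34 without 1 library, the highest without control overload replicate 1. In sham (1) they were 2 with DESeq2, 2 with voom, 2 with only the compared groups, 0 with both libraries set aside, 0 thinned and 0 to 1 without 1 library. In the interaction (0) they were 1 with DESeq2, 10 without a filter and 0 to 1 without 1 library. Thinning and leaving out libraries use fewer reads or samples. For the others the cause was not tested.

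Among named members, Xbp1 in control ran from -0.18 (without control overload replicate 2) to 0.47 (without control sham replicate 2) and was -0.25 with both libraries set aside, and Sel1l in cdKO changed sign to -0.26 when thinned. None of these was called. Edem1 in control missed the threshold in 10 alternatives (adjusted p = 0.0549 to 0.478). The replicate block gave 32 and 26 members and changed none of the counts of calls among members. Deviations of same-numbered libraries from their group means correlated weakly (5 of 12 pairs with r over 0.1, from -0.219 to 0.27). In 12 matches of a library with those of the other group compared, 6 were best at the same number. Some libraries entered more than 1 match, and the matches include comparisons between genotypes. Between sham and overload r was 0.0994, 0.27 and 0.0383 in control and 0.109, 0.193 and -0.106 in cdKO. The labels state no pairing, and the numbers were not taken as pairs. Depth limits low members, and Pdia4, at 0 in 1 library, had the widest 95% interval in all 5 comparisons (half-widths of 1.02 to 1.78).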
